A study of Homo sapiens with 15 samples.

Results

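In K562 cells, 48 protein-coding genes had lower mRNA levels at the lowest concentration of martinostat and higher levels at the highest. They were chosen by their own values, from CPM (the count of a gene per 1000000 counts of its library) averaged over the libraries of each group. A gene was selected when it had at least 5 CPM in untreated cells, at most 0.8 times that mean at 0.15 µM and at least 1.5 times that mean at 1 µM. Of 60649 genes in the count table, 19942 were protein-coding and 9487 of these had at least 5 CPM in untreated cells. Of these 9487, 2635 were at or below 0.8 times untreated at 0.15 µM and 2378 were at or above 1.5 times untreated at 1 µM. The selection leaves out ODC1 and SQSTM1, of which 1 met all thresholds. The lower value at 0.15 µM and the higher value at 1 µM are therefore properties of the selection and are given below only as a description, without a test.

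The cells were K562, an established human leukaemia line with the BCR-ABL fusion of chronic myeloid leukaemia. All groups were this 1 line, so what is described here holds for 1 leukaemia line in culture. Untreated cells served as the control, and the other 4 groups had been exposed to 0.15, 0.25, 0.5 or 1 µM martinostat for 24 h. Each group had 3 libraries of poly(A) RNA, 15 in all, which the labels number as biological replicates. Whether equal numbers in different groups came from the same culture is not stated.

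Martinostat inhibits histone deacetylases (HDACs), enzymes that remove acetyl groups from the tails of histones and from many other proteins. Acetylation loosens the contact between histones and DNA and is read by bromodomain proteins, which help RNA polymerase II to start and elongate transcripts. HDACs are also recruited by repressor complexes and occupy active genes, so inhibitors of this class are known both to raise and to lower transcripts. K562 cells are blast-like cells of erythroid and megakaryocytic character in which such inhibitors are widely studied.

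The promoters of 4 of the 48 genes are shown because these genes had the largest steps from 0.25 to 0.5 µM (described below) among those with a single start site in the table used. They are the mitogen-activated protein kinase phosphatase DUSP1, the junction and actin scaffold protein MICALL2, the linker histone gene H1-4 and MXD1, a dimerisation partner of MAX that opposes MYC. Each sequence is the 250 bases before the RefSeq start site in assembly GRCh38.p14, written 5′ to 3′ on the strand of the gene. DUSP1 lies at chr5:172771196-172771445 on the minus strand, MICALL2 at chr7:1459471-1459720 on the minus strand, H1-4 at chr6:26156079-26156328 on the plus strand and MXD1 at chr2:69914859-69915108 on the plus strand. The MXD1 gene model of GENCODE begins upstream of this window, so the window lies within that model. Capitals mark matches, on either strand, to any of 9 short motifs that were searched. These were the E-box CACGTG, the cAMP response element TGACGTCA with its first letters TGACGT as a motif of their own, the AP-1 site TGACTCA and the core of the antioxidant response element TGACNNNGC. The others were the GC box GGGCGG, the CCAAT box by its letters CCAAT, the TATA box TATAAA and the ETS core CCGGAAG. Every TGACGTCA thus also counts as a TGACGT, and matches that overlap are joined in 1 run of capitals.
DUSP1: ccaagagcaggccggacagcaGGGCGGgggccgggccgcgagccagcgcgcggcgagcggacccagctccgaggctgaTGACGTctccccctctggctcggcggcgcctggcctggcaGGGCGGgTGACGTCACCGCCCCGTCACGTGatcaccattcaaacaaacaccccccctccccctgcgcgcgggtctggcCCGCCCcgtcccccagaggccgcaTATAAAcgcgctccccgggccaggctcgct
MICALL2: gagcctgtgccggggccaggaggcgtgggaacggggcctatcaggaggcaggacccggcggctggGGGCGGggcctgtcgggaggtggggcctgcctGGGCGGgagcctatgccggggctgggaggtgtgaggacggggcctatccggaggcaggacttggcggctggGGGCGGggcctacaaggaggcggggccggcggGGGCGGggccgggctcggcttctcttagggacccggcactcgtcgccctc
H1-4: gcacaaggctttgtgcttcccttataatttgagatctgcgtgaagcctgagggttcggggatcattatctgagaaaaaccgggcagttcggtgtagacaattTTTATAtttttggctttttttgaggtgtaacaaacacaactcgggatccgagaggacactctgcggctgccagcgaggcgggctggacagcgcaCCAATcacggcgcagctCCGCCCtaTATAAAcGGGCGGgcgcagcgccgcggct
MXD1: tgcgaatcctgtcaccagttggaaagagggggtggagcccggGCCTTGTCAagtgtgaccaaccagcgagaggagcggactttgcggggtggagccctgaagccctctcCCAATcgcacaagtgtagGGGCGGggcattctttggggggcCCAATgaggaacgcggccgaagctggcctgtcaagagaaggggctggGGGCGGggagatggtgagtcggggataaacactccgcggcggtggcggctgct
The DUSP1 window held both a TATAAA close to the start and the palindrome TGACGTCA. The MICALL2 window held 4 matches to GGGCGG, and no match to the other motifs. The H1-4 window held a CCAAT and a TATAAA near the start, and the MXD1 window held 2 CCAAT and 2 GGGCGG matches. A match is a string of letters and does not show that a factor binds.

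Promoter windows of 300 bases, 250 before and 50 after a RefSeq start site, could be read for 42 of the 48 genes, and these had 53 windows because some have several start sites. Not matched were FAM83D, TCTN2, OR51B5, GOLGA7, SENP2 and SLC25A16. CCAAT occurred in 56.6% of the windows of the 42 genes, in 35.3% of the 11533 windows of protein-coding genes with at least 5 CPM in untreated cells and in 34.6% of all 35116 windows. TATAAA occurred in 17.0%, 5.74% and 11.5% of the same 3 sets, and GGGCGG in 77.4%, 68.3% and 45.0%. TGACGTCA was found in 7.55%, 3.09% and 1.85%, TGACGT in 15.1%, 11.3% and 7.98%, and TGACNNNGC in 20.8%, 14.5% and 13.3%. CACGTG was found in 13.2%, 10.1% and 7.26%, and CCGGAAG in 22.6%, 19.3% and 10.3%. TGACTCA was in none of the 53 windows, against 3.02% and 4.95% of the other sets. The median GC content was 67.7% in the windows of the selected genes, 65.0% in those of expressed genes and 58.7% over all windows. These shares are descriptions without a test, and windows of 1 gene overlap where its start sites are close.

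Library totals ranged from 23755510 to 32805574 counts. The lowest count of any of the 48 genes in any library was 81. The third replicates at 0.25 and at 0.5 µM stood apart from the other libraries of their groups. The chi-square per degree of freedom over genes was 60.7 to 109.5 in pairs that included them and 17.5 and 17.8 in the pairs of the other replicates. At the doses that chose the genes, the values were smaller but also uneven. At 0.15 µM they were 30.3 and 34.6 in pairs with replicate 3 against 9.99 in the other pair, and at 1 µM 33.0 and 38.4 in pairs with replicate 2 against 5.85. Between untreated libraries they were 8.36 to 11.4. Without replicate 3 at 0.15 µM, 42 genes met the limits and 34 of the 48 were among them, and without replicate 2 at 1 µM 53 met them, with 46 of the 48. In 31 of the 48 genes the third replicate was the highest library at 0.25 µM, in 36 it was the highest at 0.5 µM, and in 30 it was both. Results at these doses are therefore also given without these 2 libraries. Of 16 genes known to mark K562 cells, 15 had at least 10 CPM in untreated cells, and the exception was the globin gene HBE1 at 0.135 CPM. Their summed level was 4241 to 4367 CPM in untreated libraries, 3353 to 3629 at 0.15 µM, 2534 to 2732 at 0.25 µM, 1628 to 1921 at 0.5 µM and 1876 to 2032 at 1 µM. The summed level of 18 markers of T cells, B cells, monocytes, fibroblasts, epithelium and endothelium was 1285 to 1390 CPM in untreated libraries, 3987 to 5234 at 0.15 µM, 4804 to 7779 at 0.25 µM, 5524 to 7222 at 0.5 µM and 5331 to 7751 at 1 µM. Most of that sum came from the keratins KRT8, KRT18 and KRT19, while CD2, MS4A1 and CDH5 were at 0 in untreated cells. The part of these shifts in the results below was not tested. In bulk RNA, fewer cells that express a gene and less of its RNA per cell cannot be told apart.

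The values that chose the genes were as follows. At 0.15 µM the ratio to untreated cells ran from 0.514 to 0.7998 with a median of 0.740, and 28 of the 48 genes lay above 0.7. At 1 µM it ran from 1.51 to 6.01 with a median of 1.74, and 37 genes lay under 2. Most of the genes thus sat close to the limits of the selection at 0.15 µM. In 43 genes all 3 libraries at 0.15 µM lay below all 3 untreated libraries, and the exceptions were RTF1, ZFAND2B, TOPORS, THAP6 and ALG9. In all 48 genes the 3 libraries at 1 µM lay above the 3 untreated libraries. Both counts come from the libraries that chose the genes, so the selection favoured them. The share over all genes was not computed for either. The genes just inside the limit of 0.8 were THAP6 (0.7998), ZFAND2B (0.799) and FAM117B (0.796), and those just outside were FAM53C (0.802), TMEM52 (0.803) and SIN3A (0.803). At the limit of 1.5, SMG1 (1.51), LMLN (1.51) and ZMYM5 (1.52) were just inside, and GCDH (1.48), CDC25C (1.48) and C21orf91 (1.47) were just outside. At the limit of 5 CPM, TCTN2 (5.49 CPM), ALG9 (6.42 CPM) and ZMYM5 (7.70 CPM) were just inside. ENSG00000282988 (4.86 CPM), EIF3CL (4.52 CPM) and ZNF441 (4.26 CPM) were just outside.

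The selection depended on how libraries are scaled. Plain CPM assume that equal library totals mean equal amounts of RNA, whereas the trimmed mean of M values (TMM) rescales the totals for a shifted composition. The TMM factors were 0.784 to 0.828 in untreated libraries and 0.950 to 1.28 in treated ones. Which of these scales is nearer to the RNA per cell was not tested. With CPM scaled by TMM, 100 genes met the same limits, and 15 of the 48 were among them. On the TMM scale the 48 genes had a median log2 fold change against untreated cells of -0.79 at 0.15 µM and 0.45 at 1 µM, while the medians over all tested genes were 0.28 and 0.32. On that scale the difference from untreated cells was thus larger at 0.15 µM and smaller at 1 µM than in plain CPM.

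**Figure D1:**
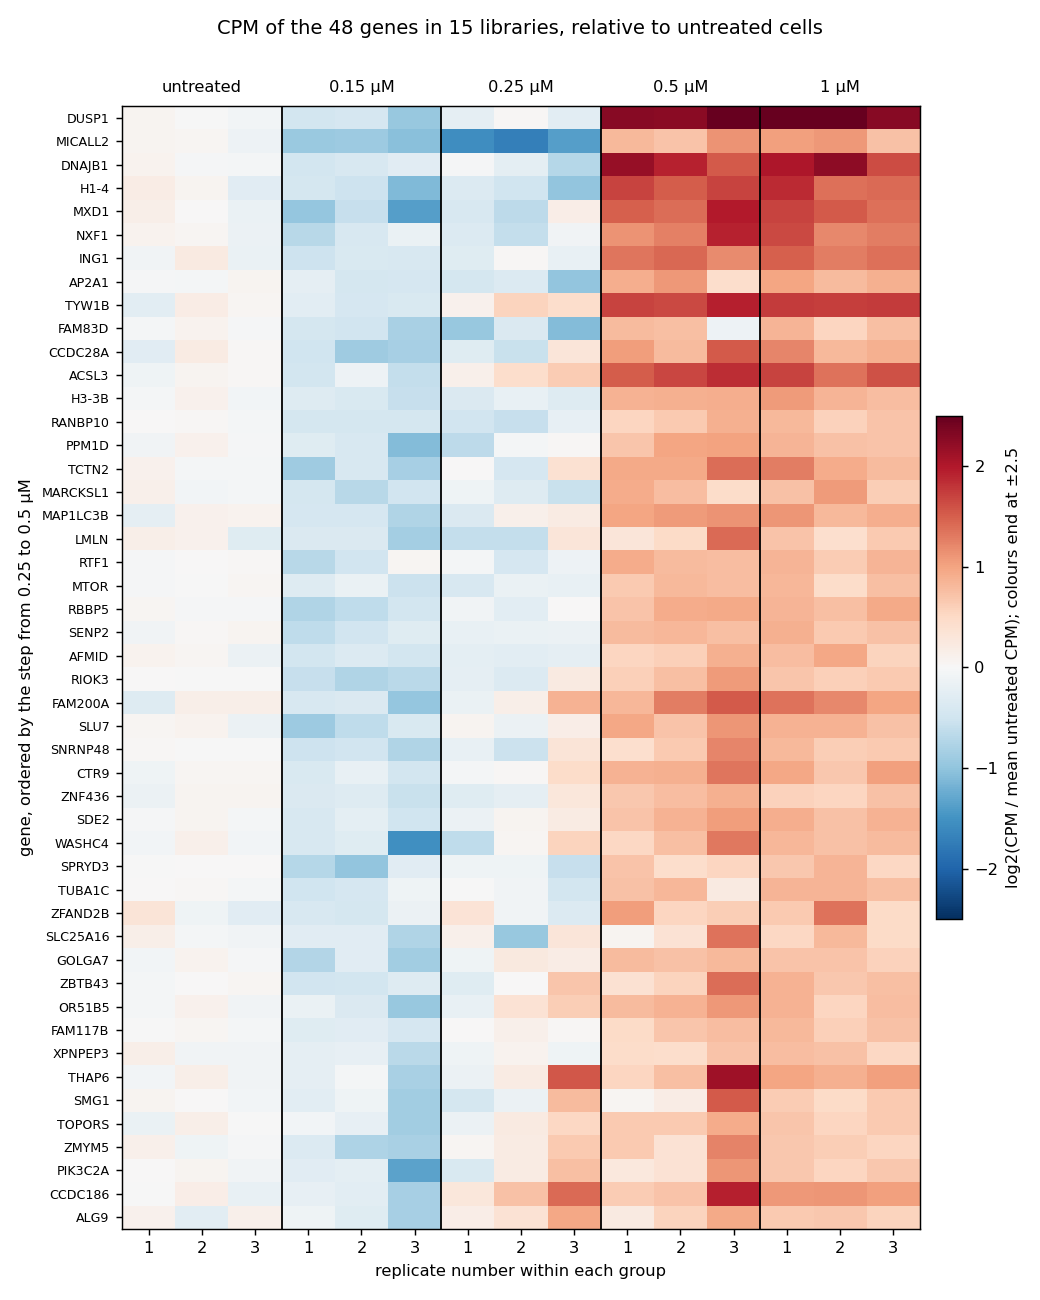
Heat map of the 48 genes (rows, ordered by the step from 0.25 to 0.5 µM) in the 15 libraries (columns, by group and replicate number), coloured by log2 of CPM over the mean untreated CPM, with colours ending at ±2.5. The columns at 0.5 and 1 µM are red in nearly every row. Those at 0.15 µM are blue in nearly every row, an exception being replicate 3 of RTF1. Those at 0.25 µM are mixed, with the third replicate the highest in 31 of 48 rows.

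The middle doses were not part of the selection, and they show where along the concentrations the genes turned. At 0.25 µM the mean of 28 genes was below that of untreated cells and that of 20 was above, with a median ratio of 0.944. Of the 48, 35 lay between 0.8 and 1.2 times untreated, 5 at or below 0.8 and 8 at or above 1.2. On plain CPM the level at 0.25 µM was above that at 0.15 µM in 45 genes and below it in AP2A1, FAM83D and MICALL2. On the TMM scale it was also lower in DNAJB1, H1-4, H3-3B, MTOR, NXF1, RANBP10 and RTF1. At 0.5 µM the means of all 48 genes were above untreated, at 1.44 to 5.13 times with a median of 1.80, and 45 were at or above 1.5 times. The exceptions were FAM83D (1.44), XPNPEP3 (1.46) and SPRYD3 (1.48). In 45 genes the 3 libraries at 0.5 µM lay above the 3 untreated libraries, and in FAM83D, SMG1 and SLC25A16 they overlapped. Over the 9487 protein-coding genes with at least 5 CPM, the median ratio to untreated was 1.01 and 1.02 at the doses of 0.15 and 0.25 µM and 0.902 and 0.891 at 0.5 and 1 µM. Because the untreated libraries and those at 0.15 µM had served for the selection, these ratios and counts are given without a test. No share over all genes was computed for the count without overlap. The number below untreated at 0.25 µM was 28 on plain CPM and 46 on CPM scaled by TMM, whereas all 48 were above untreated at 0.5 µM on both scales. Without replicate 3, 37 were below untreated at 0.25 µM and all 48 were above at 0.5 µM.

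**Figure D2:**
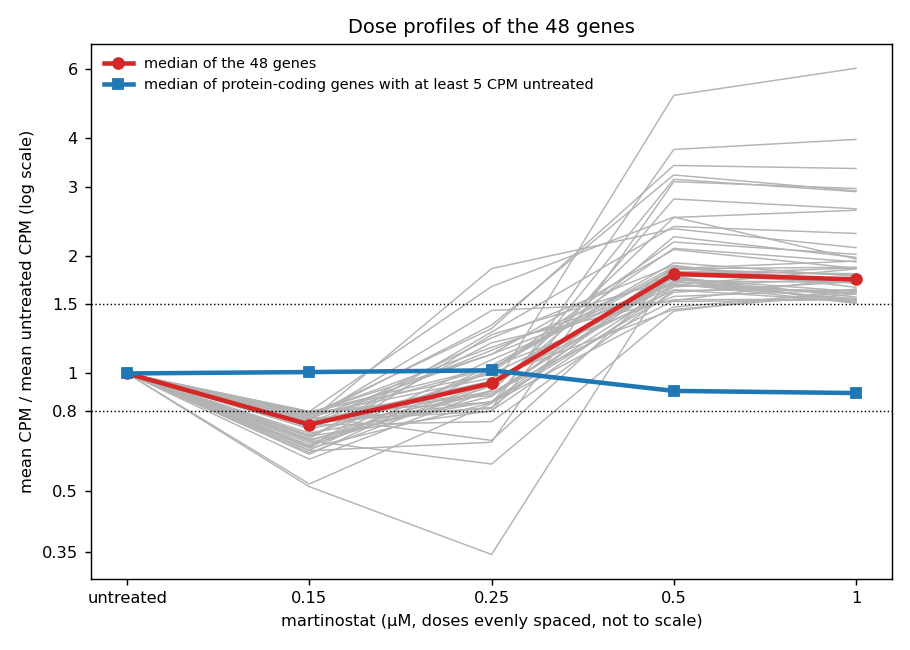
Mean CPM of each group over mean untreated CPM (log axis) against martinostat concentration (evenly spaced) for each of the 48 genes (grey), their median (red circles) and the median of the protein-coding genes with at least 5 CPM untreated (blue squares); dotted lines mark the limits 0.8 and 1.5. The red line runs 0.740, 0.944, 1.80 and 1.74 from 0.15 to 1 µM, while the blue line stays between 0.891 and 1.02.

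The step from 0.25 to 0.5 µM compares libraries that the selection did not use, so it was tested. The selection still favoured a rise here, because it required low levels at the lowest concentration and high levels at the highest. These 2 doses lie between them, so the share of genes that rose is in part a result of the selection. How large that part is was not tested. With edgeR's quasi-likelihood test and p-values adjusted by Benjamini-Hochberg over 23711 tested genes, 43 of the 48 genes (89.6%) rose at an adjusted p under 0.05. Among all tested genes 14.4% rose, among protein-coding genes with at least 5 CPM in untreated cells 18.4%, and among the other 2329 protein-coding genes that were at or above 1.5 times untreated at 1 µM 45.6%. These sets were not required to be low at the lowest concentration, so comparing with them does not remove the part due to the selection. None of the 48 was called lower, against 16.0% of all tested genes. All 48 log2 fold changes were above 0, so none was lower at an unadjusted p under 0.05 either, and DESeq2 called 44 higher and none lower, against 17.5% higher and 16.8% lower of all genes in its own test. The median log2 fold change of the 48 was 1.07 (0.23 to 2.64), against 0.02 over all tested genes, -0.02 over the expressed protein-coding genes and 0.45 over the other 2329. The step was at least 2-fold in 30 genes and at least 4-fold in 5. In 38 genes (79.2%) all 3 libraries at 0.5 µM lay above all 3 at 0.25 µM, which held for 14.2% of all tested genes. Without the third replicates at 0.25 and 0.5 µM, 45 of the 48 were called higher and the median was 1.19, with 15.4% of all tested genes higher and 16.4% lower in that fit. Within the pairs of equal replicate number, 47 of 48 genes were higher at 0.5 µM in each of replicates 1, 2 and 3. The exceptions were SLC25A16 in replicate 1, CCDC186 in replicate 2 and ALG9 in replicate 3. For these counts within pairs no share over all genes was computed.

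Between 0.5 and 1 µM the levels moved little. The ratio of 1 to 0.5 µM ran from 0.782 to 1.17 with a median of 0.959, 17 genes being higher and 31 lower at 1 µM. Over the protein-coding genes with at least 5 CPM in untreated cells the median ratio was 0.996. The libraries of these doses overlapped in 47 genes. In GOLGA7 they did not, with 36.2, 34.9 and 36.7 CPM at 0.5 µM and 34.5, 34.4 and 31.5 CPM at 1 µM. This ratio is a description, since the libraries at 1 µM had served for the selection. No share over all genes was computed for the overlap.

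**Figure D3:**
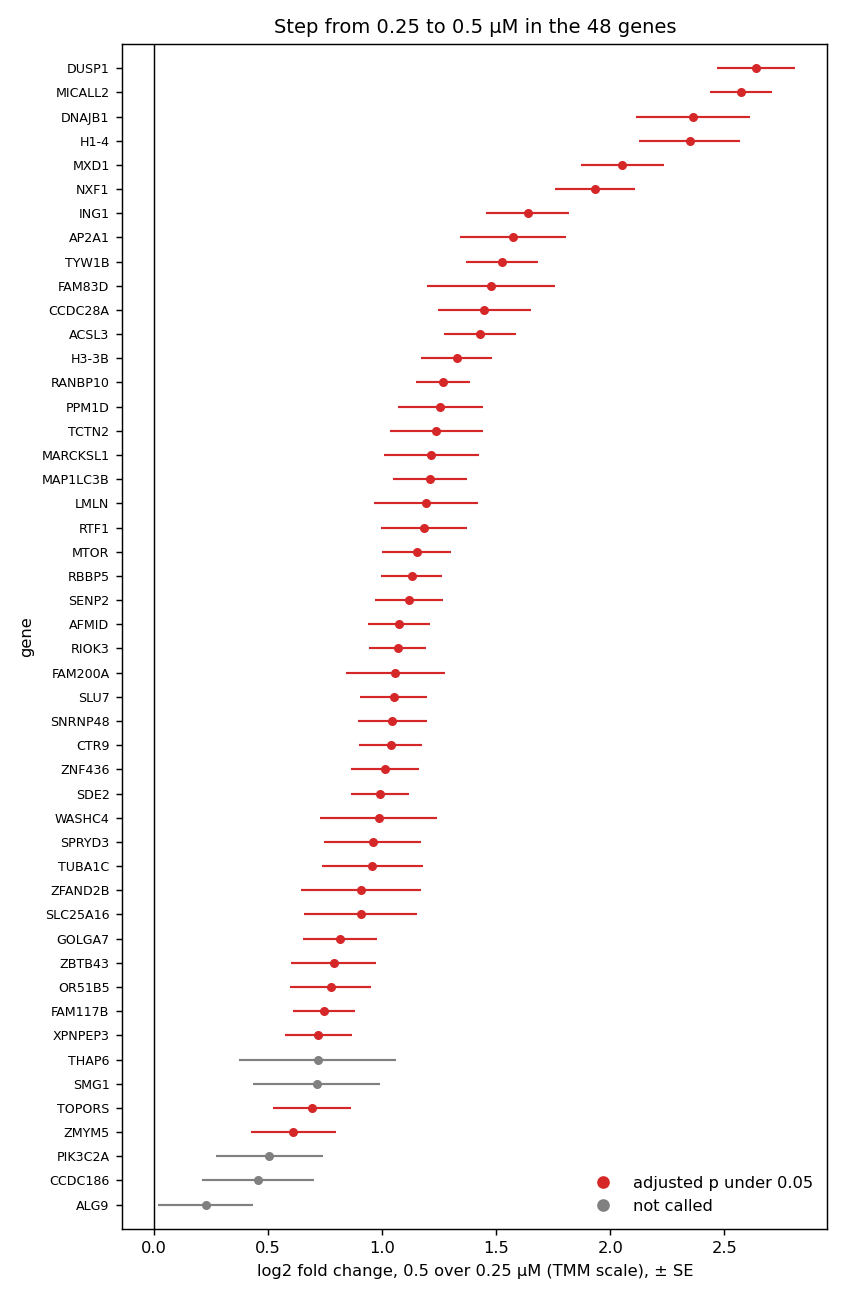
Log2 fold change from 0.25 to 0.5 µM on the TMM scale (horizontal axis, bars are standard errors of the fit) for each of the 48 genes (vertical axis), in red where the adjusted p was under 0.05 and grey where it was not. All points lie to the right of 0, from 0.23 in ALG9 to 2.64 in DUSP1, and the 5 grey points are SMG1, THAP6, PIK3C2A, CCDC186 and ALG9.

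The 48 genes were sorted by the known role of their products. This sorting was done after their values had been seen, so the groups carry no test of their own. The gene products worked in chromatin and transcript elongation (6 genes), DNA binding (5), RNA processing and export (6), phosphorylation (5), protein folding and modification with autophagy (5), membrane traffic and cytoskeleton (10) and metabolism or proteolysis (6), and 5 had other or unclear roles.

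All 6 genes of chromatin and transcript elongation rose from 0.25 to 0.5 µM, with log2 fold changes of 1.04 to 2.35. H1-4 encodes a linker histone, which binds the DNA between nucleosomes. It had 20.4, 18.9 and 14.8 CPM in untreated cells, 13.4, 12.6 and 8.43 at 0.15 µM, 14.3, 12.8 and 9.09 at 0.25 µM, 58.0, 51.4 and 57.9 at 0.5 µM and 65.8, 46.7 and 48.2 at 1 µM. The libraries at the higher doses all lay above those of the other 3 groups, and the step was 2.35 on the log2 scale (SE 0.22, edgeR adjusted p 2.38e-07). Most transcripts of such histone genes lack a poly(A) tail, so a poly(A) library holds only the tailed part of them. H3-3B encodes the replacement histone H3.3, which is laid down outside replication. Its levels were 414, 466 and 414 CPM in untreated cells, 337, 379 and 344 at 0.25 µM and 787, 796 and 811 at 0.5 µM, groups that did not overlap (log2 fold change 1.33, SE 0.16, edgeR adjusted p 3.05e-06). H3-3A encodes the same protein from a similar sequence, so reads may be shared between the copies.

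ING1 encodes a reader of methylated histone H3 that is a subunit of the SIN3-HDAC repressor complex. Its levels were 16.6, 20.8 and 15.7 CPM in untreated cells, 12.4, 13.6 and 13.4 at 0.15 µM, 14.3, 18.0 and 15.4 at 0.25 µM, 44.5, 47.98 and 40.2 at 0.5 µM and 49.7, 42.9 and 45.9 at 1 µM. The untreated libraries thus overlapped with those at 0.25 µM, and both lay far below those at the higher doses (log2 fold change from 0.25 to 0.5 µM 1.64, SE 0.18). CTR9, a subunit of the PAF1 complex, and RTF1, its partner, encode proteins that travel with RNA polymerase II during elongation. CTR9 had 99.4, 105 and 142 CPM at 0.25 µM and 188, 192 and 261 at 0.5 µM, and RTF1 had 52.5, 40.7 and 49.5 and then 102, 93.6 and 92.8. RBBP5, a core subunit of the complexes that methylate lysine 4 of histone H3, went from 67.4, 59.6 and 72.2 CPM to 117, 136 and 137. In these 3 genes the groups at 0.25 and 0.5 µM did not overlap, and all 3 rose (log2 fold changes 1.04, 1.18 and 1.13).

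Of 5 genes of DNA-binding and zinc finger proteins, 4 rose. MXD1 had 18.5, 16.9 and 14.9 CPM in untreated cells, 8.64, 11.2 and 6.43 at 0.15 µM, 12.7, 10.7 and 18.8 at 0.25 µM, 47.5, 43.9 and 66.2 at 0.5 µM and 54.4, 48.5 and 43.8 at 1 µM. Its ratio to untreated at 0.15 µM (0.522) was among the lowest of the 48. The step from 0.25 to 0.5 µM was 2.05 (SE 0.18, edgeR adjusted p 1.16e-07). ZBTB43 and ZNF436, zinc finger proteins, rose by log2 fold changes of 0.79 and 1.01, and ZMYM5, a protein with MYM-type zinc fingers, by 0.61 (edgeR adjusted p 0.0176). In ZBTB43 the groups overlapped, with 17.0, 21.1 and 33.9 CPM at 0.25 µM and 27.4, 30.9 and 54.8 CPM at 0.5 µM. Its edgeR adjusted p was 0.00336 and ran from 4.85e-05 to 0.0700 over the alternative settings, being above 0.05 with library totals (0.0522) and with the 6 libraries alone (0.0700). In ZMYM5 the groups overlapped, with 7.91, 8.93 and 12.2 CPM at 0.25 µM and 12.2, 9.93 and 18.3 CPM at 0.5 µM, and its adjusted p ran from 0.00277 to 0.144 over the alternative settings. THAP6, which carries a THAP-type DNA-binding domain, did not pass the test and is described below.

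Of 6 genes of RNA processing, export and surveillance, 5 rose. NXF1 encodes the main receptor that carries mRNA out of the nucleus. It had 69.5, 67.4 and 59.5 CPM in untreated cells, 40.6, 49.4 and 58.7 at 0.15 µM, 51.9, 43.3 and 61.9 at 0.25 µM, 143, 158 and 247 at 0.5 µM and 206, 151 and 159.5 at 1 µM. The third replicate at 0.5 µM was the highest library, and the others still lay above all libraries of the lower doses (log2 fold change 1.93, SE 0.17, edgeR adjusted p 1.33e-07). TYW1B, which belongs to the family of tRNA-wybutosine synthesis enzymes, had 11.2, 15.2 and 14.0 CPM in untreated cells, 14.5, 19.8 and 18.2 at 0.25 µM and 43.3, 42.3 and 51.5 at 0.5 µM. Its step was 1.53 (SE 0.16), and at 1 µM it stood at 3.34 times untreated. TYW1B is nearly identical to TYW1, so its count is uncertain. SLU7, a splicing factor of the second catalytic step, and SNRNP48, a protein of the minor spliceosome, rose by 1.05 and 1.04. SDE2, a protein of splicing and of genome maintenance, rose by 0.99, from 109.5, 126 and 138 CPM to 198, 221 and 250.3 CPM.

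Of 5 genes of kinases and phosphatases, 4 rose. DUSP1, whose product dephosphorylates and so switches off the MAP kinases p38, JNK and ERK, had the largest step of the 48. It had 21.2, 20.2 and 19.2 CPM in untreated cells, 14.7, 15.1 and 10.5 at 0.15 µM, 17.2, 20.8 and 16.8 at 0.25 µM, 97.5, 96.0 and 117 at 0.5 µM and 132, 135 and 97.4 at 1 µM. The untreated libraries overlapped with those at 0.25 µM, and all libraries of the higher doses lay far above both. The step was 2.64 on the log2 scale, or 6.23-fold (SE 0.17, edgeR adjusted p 3.25e-09). MTOR, the kinase of the complexes that couple growth to nutrients and restrain autophagy, went from 252, 257 and 267 CPM in untreated cells to 206, 231 and 179 at 0.15 µM, 196, 231 and 228 at 0.25 µM, 407, 453 and 444 at 0.5 µM and 457, 354 and 438 at 1 µM. Its libraries at 0.15 and 0.25 µM all lay below the untreated ones, and its step was 1.15 (SE 0.15, edgeR adjusted p 1.29e-05). PPM1D, a phosphatase that reverses DNA damage signalling, rose by 1.25 from 18.0, 27.4 and 29.0 CPM to 45.8, 56.2 and 57.3 CPM. RIOK3, an atypical kinase, rose by 1.07 from 91.3, 83.6 and 124 CPM to 161, 179.7 and 223 CPM, after a ratio to untreated of 0.627 at 0.15 µM. PIK3C2A, a class II phosphoinositide 3-kinase, did not pass the test.

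All 5 genes of folding, ubiquitin and SUMO modification and autophagy rose. DNAJB1 encodes a co-chaperone of the HSP70 family that is a classical heat shock gene. It had 239.8, 222 and 218 CPM in untreated cells, 165, 171 and 185 at 0.15 µM, 223, 192 and 138 at 0.25 µM, 1020, 856 and 659 at 0.5 µM and 913, 1071 and 704 at 1 µM. The third replicate was the lowest library at 0.25 and at 0.5 µM, the reverse of its place in most of the other genes, and the groups did not overlap (log2 fold change 2.36, SE 0.25, edgeR adjusted p 9.95e-07). Its ratio of 3.96 at 1 µM was the second highest of the 48. MAP1LC3B encodes LC3B, the protein that is joined to lipid on the growing autophagosome. Its levels were 109, 137 and 136 CPM in untreated cells, 95.5, 94.7 and 75.1 at 0.15 µM, 98.9, 138 and 147 at 0.25 µM, 252, 265 and 278 at 0.5 µM and 272, 224 and 238 at 1 µM (log2 fold change from 0.25 to 0.5 µM 1.21, SE 0.16, edgeR adjusted p 1.52e-05). The libraries at 0.25 µM thus covered the range of the untreated ones. SENP2, a protease that removes SUMO, rose by 1.12 from 58.1, 59.3 and 60.0 CPM to 114, 118 and 111 CPM. ZFAND2B, a ubiquitin-binding protein of the proteasome pathway, and TOPORS, a ligase for ubiquitin and SUMO, rose by 0.91 and 0.69 (edgeR adjusted p 0.0143 and 0.00444). The adjusted p of ZFAND2B ran from 9.81e-06 to 0.0779 over the alternative settings, and its call was lost without replicate 3 at 0.25 µM (0.0638) or replicate 1 at 0.5 µM (0.0779). TOPORS shares 8.42% of its exon bases with another gene on the same strand.

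**Figure D4:**
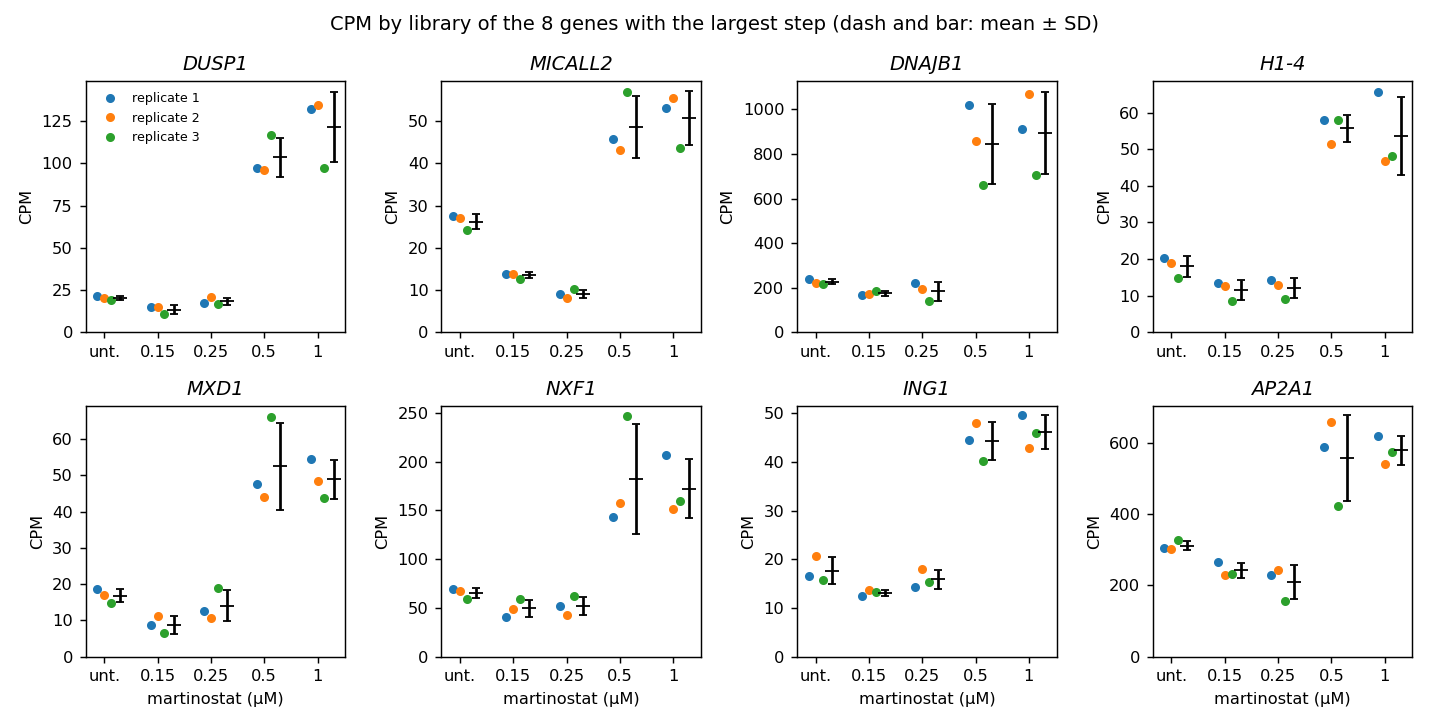
CPM (vertical axes, from 0) of the 8 genes with the largest step from 0.25 to 0.5 µM in every library, by martinostat concentration (unt., untreated); points are libraries coloured by replicate number, and the dash and bar are the mean ± SD of 3 libraries. In all 8 genes the libraries at 0.5 µM lie above those at 0.25 µM, as for DUSP1 with 96.0 to 117 against 16.8 to 20.8 CPM.

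Of the 10 genes of membrane traffic and the cytoskeleton, 9 rose. MICALL2 encodes a scaffold that links small GTPases of recycling membranes to actin at cell junctions. It had 27.4, 27.0 and 24.1 CPM in untreated cells, 13.9, 13.9 and 12.7 at 0.15 µM, 8.93, 8.05 and 10.1 at 0.25 µM, 45.7, 43.2 and 56.9 at 0.5 µM and 53.2, 55.4 and 43.6 at 1 µM. It was the gene with the lowest ratio to untreated both at 0.15 µM (0.514) and at 0.25 µM (0.345). No library at 0.25 µM reached those at 0.15 µM, and the step to 0.5 µM was 2.57 (5.95-fold, SE 0.14, edgeR adjusted p 2.61e-10). FAM83D, a protein of the mitotic spindle, and AP2A1, a subunit of the clathrin adaptor AP-2, were the other genes lower at 0.25 than at 0.15 µM on plain CPM. AP2A1 had 304, 303 and 326 CPM in untreated cells, 266, 229 and 231 at 0.15 µM, 229, 244 and 156 at 0.25 µM and 587, 659 and 423 at 0.5 µM (log2 fold change 1.57, SE 0.23, edgeR adjusted p 4.15e-05). FAM83D had 37.5, 41.1 and 37.95 CPM, then 28.5, 27.9 and 22.1, then 20.0, 30.1 and 18.2, then 66.9, 65.6 and 35.5 in the same 4 groups (log2 fold change 1.48, SE 0.28, edgeR adjusted p 0.000742). In both genes the third replicate was the lowest library at 0.25 and 0.5 µM, and in both the libraries at 0.15 and 0.25 µM overlapped.

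TUBA1C, an alpha-tubulin, and MARCKSL1, an actin-binding protein at the plasma membrane, rose by 0.96 and 1.22. MARCKSL1 went from 288, 250.3 and 211 CPM to 592, 531 and 428 CPM, and TUBA1C from 386, 364 and 281 CPM to 640.2, 686 and 455 CPM, without overlap. TUBA1C is close in sequence to TUBA1A and TUBA1B, and a gene on the other strand covers 22.7% of its exons, so its count is uncertain. RANBP10, a binding partner of the GTPase Ran, rose by 1.27, and TCTN2, a protein of the ciliary transition zone, by 1.24. WASHC4, a subunit of the endosomal WASH complex, rose by 0.98 (SE 0.26, edgeR adjusted p 0.00729) with overlapping groups, 35.8, 57.4 and 82.1 CPM against 79.9, 94.2 and 139 CPM. GOLGA7, part of a palmitoyltransferase of RAS proteins, rose by 0.81, and a gene on the other strand covers 20.1% of its exons. CCDC186, a protein of dense-core vesicle formation, did not pass the test.

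Of 6 genes of metabolism and proteolysis, 5 rose. ACSL3 encodes an enzyme that activates long-chain fatty acids for lipid droplets and membranes. It had 196, 223 and 216 CPM in untreated cells, 154, 194 and 139 at 0.15 µM, 229.7, 286 and 327 at 0.25 µM, 604, 671 and 763 at 0.5 µM and 678, 541 and 636 at 1 µM. All its libraries at 0.25 µM were already above the untreated ones, and it rose further by 1.43 (SE 0.16, edgeR adjusted p 1.5e-06). AFMID, the formamidase of tryptophan breakdown, the mitochondrial carrier SLC25A16, the mitochondrial aminopeptidase XPNPEP3 and the metalloprotease LMLN rose by 1.07, 0.90, 0.72 and 1.19. In SLC25A16 the groups overlapped, with 15.5, 7.36 and 17.3 CPM at 0.25 µM and 14.8, 18.1 and 36.3 CPM at 0.5 µM. Its edgeR adjusted p was 0.00922, and over the alternative settings it ran from 9.34e-05 to 0.0989. The call was lost with library totals (0.0681), with the 6 libraries alone (0.0989) and without replicate 3 at 0.5 µM (0.0512). ALG9, a mannosyltransferase of N-glycan assembly, did not pass the test. Among the remaining 5 genes, CCDC28A, FAM200A, SPRYD3, FAM117B and OR51B5 all rose, by 1.45, 1.06, 0.96, 0.74 and 0.77. In FAM200A the groups overlapped, with 11.5, 14.3 and 23.8 CPM at 0.25 µM and 23.1, 31.5 and 37.7 CPM at 0.5 µM. CCDC28A had 7.17, 10.1 and 8.87 CPM in untreated cells and 6.18, 4.7 and 4.91 at 0.15 µM, a ratio of 0.604. OR51B5 is an olfactory receptor gene beside the beta-globin locus on chromosome 11, with 5.32% of its exon bases under another gene of the same strand.

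The 5 genes that were not called from 0.25 to 0.5 µM had their highest library at 0.25 µM in replicate 3. SMG1, a kinase of nonsense-mediated mRNA decay, had 133, 162 and 309 CPM at 0.25 µM and 186, 205 and 523 CPM at 0.5 µM (log2 fold change 0.71, SE 0.28, edgeR adjusted p 0.0633). THAP6 had 9.34, 12.0 and 30.6 CPM and then 15.2, 17.6 and 45.4 CPM (0.72, SE 0.34, edgeR adjusted p 0.135). Both genes were higher at 0.5 µM in each pair of equal number, and the groups overlapped. PIK3C2A had 37.7, 56.7 and 82.4 CPM and then 58.8, 63.5 and 106 CPM (0.50, edgeR adjusted p 0.119). It too was higher at 0.5 µM in each pair of equal number, with overlapping groups. CCDC186 had 12.9, 17.7 and 28.4 CPM and then 16.5, 17.4 and 40.6 CPM (0.45, edgeR adjusted p 0.177). ALG9 had 7.2, 8.2 and 12.5 CPM and then 7.54, 9.41 and 12.4 CPM (0.23, edgeR adjusted p 0.456). With the replicate number as a block in a fit of the 6 libraries at these doses, SMG1, THAP6, PIK3C2A and CCDC186 were called higher by edgeR (adjusted p 5.04e-05, 0.000214, 0.00164 and 0.0151) and ALG9 was not. Over all alternative settings the adjusted p ran from 5.04e-05 to 0.371 for SMG1, from 0.000214 to 0.587 for THAP6, from 0.00164 to 0.396 for PIK3C2A, from 0.0151 to 0.797 for CCDC186 and from 0.187 to 0.863 for ALG9. CCDC186 and THAP6 were also the genes with the highest ratios to untreated at 0.25 µM, 1.85 and 1.67. SMG1 has many near-identical pseudogene copies, and 24.2% of the exon bases of ALG9 lie under another gene of the same strand, so both counts are uncertain.

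Per length, the 48 genes spanned a wide range of levels in untreated cells. In CPM per kilobase of exon the median was 7.41, from 0.796 in ALG9 to 201 in MARCKSL1. After MARCKSL1 came TUBA1C (86.8), H3-3B (70.3), AP2A1 (35.7), SDE2 (30.3) and DNAJB1 (27.7). The median untreated level was 31.0 CPM, against 46.2 CPM over the protein-coding genes with at least 5 CPM. Summed exon length had a median of 5986 bases, against 5618 in that set. The genes lay on 20 chromosomes, with 5 on chromosome 1 as the most on any.

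For 13 lists of genes with related function, the step from 0.25 to 0.5 µM is given as the number called higher and lower by edgeR among those tested. Over all tested genes 14.4% were higher and 16.0% lower. Among protein-coding genes with at least 5 CPM in untreated cells, which are nearer in kind to the lists, 18.4% were higher. The share called lower in that set was not computed. Of the 3 lists that contain a selected gene, the autophagy list with MAP1LC3B had 12 of 31 higher, 2 lower and a median log2 fold change of 0.26. The heat shock list with DNAJB1 had 6 of 18 higher, 5 lower and a median of 0.04, so that its other members moved in both directions. The list of immediate early and ERK feedback genes with DUSP1 had 11 of 24 higher, 11 lower and a median of 0.13. None of the 48 was in the remaining 10 lists. Lysosome genes were higher in 17 of 32 and lower in 2, with a median of 0.50, but the 6 libraries at these doses alone gave 9 of the lysosome genes higher. Higher and lower counts were 6 and 5 of 26 for cholesterol synthesis and uptake, 7 and 4 of 19 for the integrated stress response, 7 and 5 of 18 for NRF2 antioxidant genes and 3 and 2 of 12 for polyamine metabolism. They were 4 and 3 of 29 for the actin cytoskeleton, 6 and 7 of 23 for glycolysis and hypoxia, 2 and 2 of 11 for megakaryocyte and platelet genes, 9 and 9 of 27 for apoptosis and 7 and 11 of 27 for the cell cycle. The count of NRF2 genes called higher was 3 with the 6 libraries alone or without replicate 2 at 0.5 µM, 4 without replicate 3 at 0.25 µM and 11 without replicate 3 at 0.5 µM. The count of cell cycle genes called lower was 6 or 7 with the 6 libraries alone and without replicate 1 or 2 at 0.25 µM or replicate 3 at 0.5 µM.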

How the data were processed

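The authors isolated poly(A) RNA from K562 cells, prepared directional paired-end libraries, trimmed reads with Trim Galore 0.6.10 and Trimmomatic, aligned them to hg38 with HISAT2 2.2.1 and counted fragments per gene of GENCODE release 38 with featureCounts 1.5.3. The strand setting of the counting is not given in the sources used here. The deposited counts of 60649 genes in 15 libraries are raw and were the only values used. The FPKM tables were not used.

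Gene type and position came from GENCODE release 44 on the same build, matched by identifier without version (60463 of 60649). The 48 genes were chosen on plain CPM as the report states, and the genes, gene lists and motifs were chosen with earlier results of these data known. Genes named were those with the 10 largest and 5 smallest steps from 0.25 to 0.5 µM, the 6 highest per kilobase in untreated cells, the 5 lowest at 0.15 µM, the 5 highest at 1 µM, those next to each limit and those in a list, and the others by role. SMG1 and THAP6 were described because they were not called. Counts were fitted with edgeR 4.0.16 in R 4.3.3 (filterByExpr, TMM, robust quasi-likelihood F test, 15 libraries, group as the only term, Benjamini-Hochberg over 23711 genes, called at adjusted p under 0.05). Steps are on the TMM scale, levels and ratios on plain CPM. The procedure was tested on simulated data. Deviations from the group means of libraries with the same number correlated at 0.266, 0.268 and 0.579 between 0.25 and 0.5 µM. Those of libraries with unlike numbers correlated at -0.414 to 0.236. The highest of these, replicate 2 at 0.25 µM with replicate 1 at 0.5 µM, was close to the 0.266 and 0.268 of equal numbers. Between 0.5 and 1 µM, libraries of equal number correlated at only -0.037, -0.038 and 0.092. Between untreated cells and 0.15 µM they did so at -0.002, 0.029 and -0.011. Equal numbers were treated as pairs in the counts within pairs and in the fits with a replicate block. The main fit did not use the pairing. This pairing comes from the values, not from the labels, and is uncertain. Alternatives were other scalings and filters, a replicate block, the 6 libraries at 0.25 and 0.5 µM alone, DESeq2 1.42.0 and leaving out libraries. If the replicates are not separate cultures, p-values measure only technical spread.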

Additional observations from a re-analysis of the deposited data

How the results depend on the processing

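Of the 48 genes, 39 were called higher from 0.25 to 0.5 µM in all 16 alternative fits and no log2 fold change turned its sign. Each of these fits called between 6.88% and 22.6% of all tested genes higher. Of the 48, the number called was 43, and 40 with library totals or with the 6 libraries alone, 41 to 46 without 1 library and 44 with DESeq2. With a replicate block it was 43 over all 15 libraries and 47 over the 6 libraries. That last fit called 4871 of 21562 tested genes higher (22.6%) and 5064 lower (23.5%), against 14.4% and 16.0% in the fit of all libraries without the block, so more genes were called in both directions. Among the 48 the block changed no other call than those given in the report. Calls were lost in some alternatives for SLC25A16, ZBTB43, ZFAND2B and ZMYM5.

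The number of genes selected was 100 with CPM scaled by TMM (15 shared with the 48), 145 with CPM scaled by RLE (19 shared), 20 with a limit of 0.7 at 0.15 µM and 11 with a limit of 2 at 1 µM. Leaving out 1 library gave 41 to 70. Of the 100 chosen on TMM, 89 were called higher from 0.25 to 0.5 µM and 1 lower. The number below untreated at 0.25 µM was 46 on TMM and 45 on RLE scaling, and 23 to 37 without 1 library. Over all tested genes 3409 were called higher and 3802 lower, and with the 6 libraries alone 2227 and 2614. Library totals moved the median of all genes to -0.12 and gave 2409 higher and 4521 lower, or 34.8% higher among called genes against 47.3%. Of 416 counts in the gene lists over the alternatives, 393 stayed within 1.5 times. With the 6 libraries alone the counts that did not were lysosome higher (9), NRF2 higher (3), polyamine lower (1), actin lower (1) and cell cycle lower (6). With the block on these libraries they were lysosome lower (4), actin higher (8) and lower (9) and megakaryocyte higher (4). With library totals they were actin lower (8) and apoptosis higher (5), and without replicate 3 at both doses actin lower (5) and megakaryocyte higher (1). Leaving out 1 library moved NRF2 higher to 3, 4 or 11, actin higher to 7 and lower to 1, polyamine lower to 1 and cell cycle lower to 6 or 7. The causes were not tested. Depth limits the least expressed of the 48 genes most, at a lowest count of 81.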
